A study of Drosophila melanogaster with 2 samples.

Results

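The Bearded family is a group of short genes in 2 clusters of the Drosophila melanogaster genome, of which 8 are described here. E(spl)malpha-BFM, E(spl)m2-BFM, E(spl)m4-BFM and E(spl)m6-BFM lie in the Enhancer of split complex on chromosome arm 3R, among genes for basic helix-loop-helix (bHLH) repressors. BobA, Tom, Brd and Ocho lie in the Bearded complex on 3L. The genes were chosen by family membership, with the peak signal at both loci already known, out of 13945 annotated protein-coding genes. The counts and signals at them are therefore a description, and no test was made.

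Bearded family proteins are small and lack enzymatic activity. They bind the ubiquitin ligase Neuralized and restrain it, and Neuralized is needed for the endocytosis of Delta that activates Notch in the neighbouring cell. Many of the genes are transcribed in response to Notch signalling through Su(H) and to proneural proteins, and in the early embryo Snail represses several of them in the mesoderm.

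Binding was mapped by chromatin immunoprecipitation and sequencing in whole embryos of both sexes, 2 to 6 h old by their source description. All embryos came from a transgenic line that expresses fd102C, a fork head domain protein, with GFP joined to its C-terminus. There was 1 group of 2 biological replicates and no contrast between conditions. The labels call the libraries input control in one field but name fd102C as antibody and transcription factor ChIP-seq as assay, and they were treated as ChIP. The authors deposited 30000 peaks for each replicate, 30000 for the pooled replicates, and 2031 that passed their reproducibility threshold, which are the 2031 highest of the pooled list. Read depth is unknown. Since embryos were used whole, strong binding in few cells and weak binding in many cannot be told apart.

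At the Bearded family loci the summits numbered 13 in the thresholded list, 7 in the Enhancer of split complex and 6 in the Bearded complex, counting from the first to the last member and 5 kb beyond. The highest by far did not lie at a gene but in the long intergenic stretch between BobA and Tom. Next came summits upstream of E(spl)m7-HLH and upstream of E(spl)m2-BFM. BobA alone had no thresholded summit within 5 kb. The plus-strand sequence of 201 bases around 6 of these summits is shown because they are the strongest at each locus or carry consensus matches. None of the 6 overlaps a coding sequence or untranslated region of a protein-coding gene. That upstream of E(spl)m2-BFM overlaps an exon of the non-coding gene lncRNA:CR43643. Capitals mark fork head matches (GTAAACA on either strand, where the first base may also be A and the sixth also T) and, in the last sequence only, also a Su(H) match (CGTGAGAA, CGTGGGAA, TGTGAGAA or TGTGGGAA on either strand). All coordinates are dm6, and the bases are those of the RefSeq copy of that assembly.
between BobA and Tom, strongest, chr3L:14956386-14956586: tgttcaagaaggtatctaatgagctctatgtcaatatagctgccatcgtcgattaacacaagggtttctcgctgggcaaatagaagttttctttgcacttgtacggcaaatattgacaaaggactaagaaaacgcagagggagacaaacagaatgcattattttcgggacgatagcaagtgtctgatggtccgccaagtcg
between BobA and Tom, second, chr3L:14961242-14961442: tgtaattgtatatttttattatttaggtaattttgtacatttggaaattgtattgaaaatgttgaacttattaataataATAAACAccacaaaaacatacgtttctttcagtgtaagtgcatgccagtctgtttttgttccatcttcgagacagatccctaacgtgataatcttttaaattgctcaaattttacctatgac
upstream of E(spl)m7-HLH, in the span of E(spl)m6-BFM, chr3R:26036520-26036720: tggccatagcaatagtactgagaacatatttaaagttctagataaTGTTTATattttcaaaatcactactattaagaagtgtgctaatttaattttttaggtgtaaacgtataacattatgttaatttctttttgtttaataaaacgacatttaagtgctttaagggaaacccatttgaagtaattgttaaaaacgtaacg
upstream of E(spl)m2-BFM, chr3R:26017952-26018152: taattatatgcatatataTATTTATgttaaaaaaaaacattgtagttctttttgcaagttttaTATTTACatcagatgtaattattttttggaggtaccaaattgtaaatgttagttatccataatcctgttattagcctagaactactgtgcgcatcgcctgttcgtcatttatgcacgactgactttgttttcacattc
beyond the 3' end of E(spl)malpha-BFM, chr3R:26011615-26011815: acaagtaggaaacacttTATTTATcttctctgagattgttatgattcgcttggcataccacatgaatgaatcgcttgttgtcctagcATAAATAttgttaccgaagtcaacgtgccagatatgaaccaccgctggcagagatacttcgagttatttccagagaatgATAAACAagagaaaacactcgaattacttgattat
beyond the 3' end of Ocho, chr3L:14976088-14976288: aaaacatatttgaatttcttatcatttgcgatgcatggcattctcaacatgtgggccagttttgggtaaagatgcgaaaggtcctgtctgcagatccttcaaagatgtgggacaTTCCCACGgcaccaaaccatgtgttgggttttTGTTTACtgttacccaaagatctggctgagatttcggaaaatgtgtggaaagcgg

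Of the 8 genes, 7 held at least 1 thresholded summit when each was widened by 5 kb, against 23.9% of all protein-coding genes. The members are short, 532 to 1193 bp, and among the 2976 protein-coding genes in that range of length the share was 16.7%. At least 2 summits were found for 6 members, against 5.56% of all protein-coding genes. The spans overlap, and the 7 genes held 10 distinct summits, of which 4 counted for more than 1 member. A summit within 1 kb of a member's own transcription start site (TSS) was found for 4 members, against 9.08% of all genes.

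Summits were denser at both loci than over the genome, while the signal of most of them was ordinary. The median pooled signal of the 13 was 181.3, and that of all thresholded peaks was also 181.3. The thresholded list had 2.11 summits per 10 kb over the Enhancer of split stretch and 1.48 over the Bearded stretch, against 0.152 over the 6 main chromosome arms. The pooled list goes far below the threshold and, by the authors' own name for it, holds background as well as peaks. Its summits therefore cannot all be read as binding sites. It had 9.35 and 10.6 summits per 10 kb, against 2.24. Every member held 9 to 13 pooled summits in its widened span (median 11.5), while the median was 2 over protein-coding genes of the same range of length. Only 2.08% of those genes, members included, held 9 or more, a limit taken from the members' own lowest count. For pooled summits of any number the 8 members are no exception, since 89.7% of all protein-coding genes held at least 1.

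**Figure D1:**
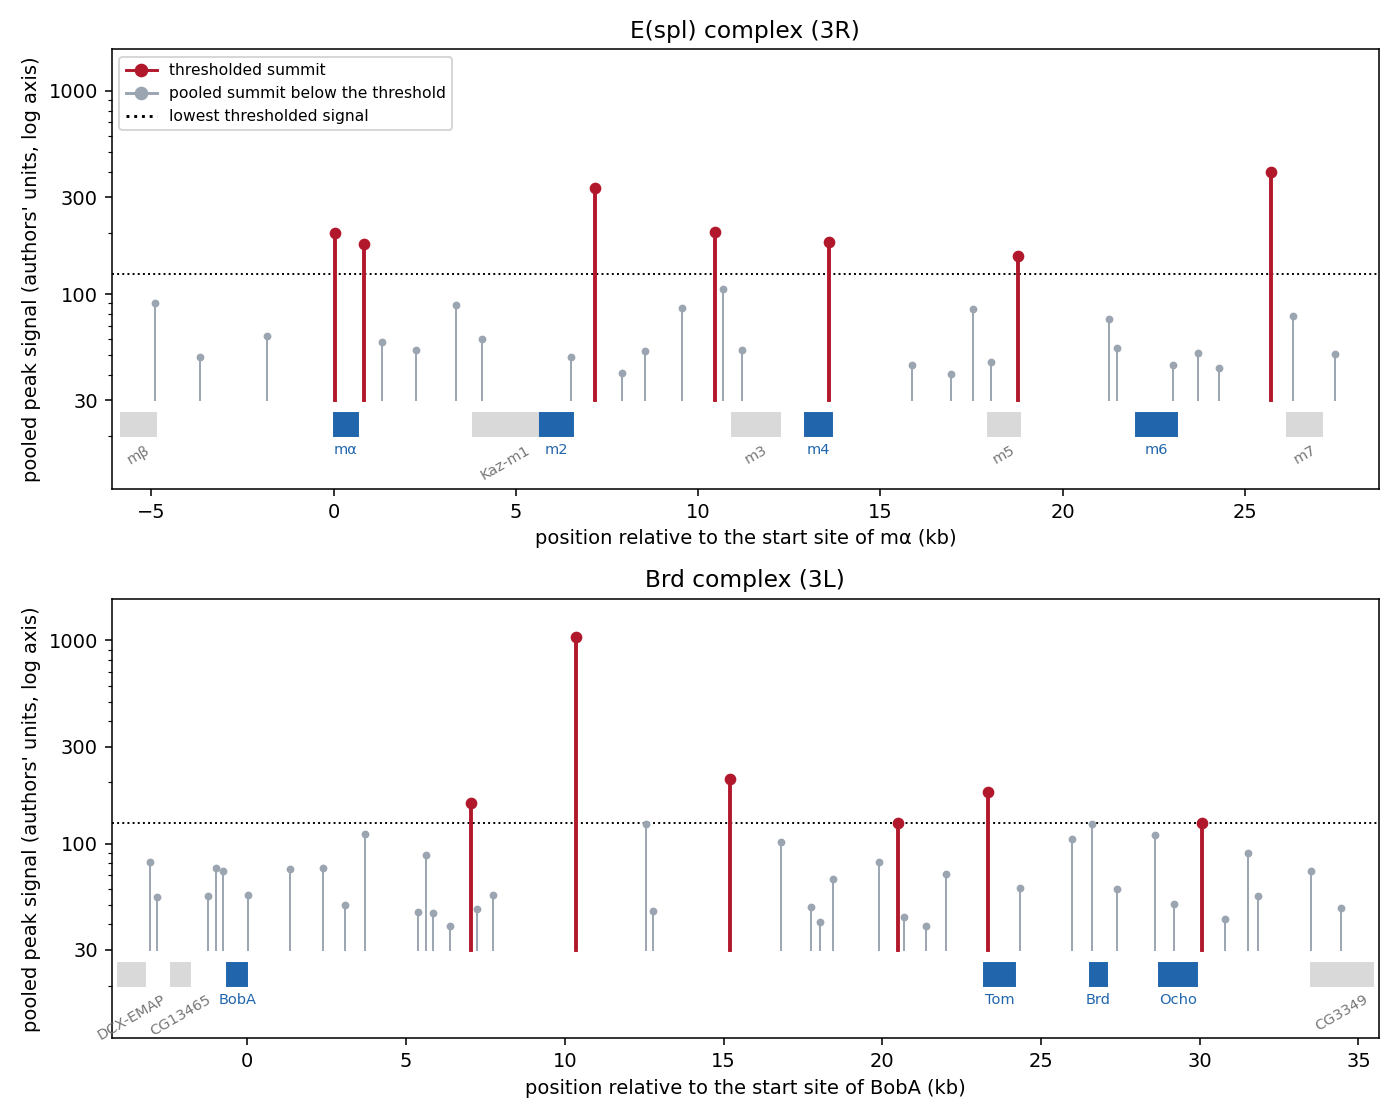
Pooled peak signal (authors' units, log axis) at each summit of the Enhancer of split complex (top) and the Bearded complex (bottom). Positions are in kb from the start site of malpha or BobA. Red stems are thresholded summits and grey stems pooled summits below the threshold. Blue boxes are the 8 genes described here and grey boxes other protein-coding genes. The intergenic summit at 1039 stands above all others, and BobA has only grey stems around it.

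E(spl)malpha-BFM (3R 26010893 to 26011568, plus strand) carried a summit 44 bp downstream of its TSS, in its 5' UTR, and another 822 bp downstream, just past its 3' end. The first had signal 117.9 in replicate 1, 76.8 in replicate 2 and 199.3 in the pooled list, where it ranked 840. The second had 107.1, 73.2 and 177.3, and ranked 1055. Signal scales differ between the lists, so ranks show how the replicates compare. These were 817 and 1118 for the first summit and 980 and 1225 for the second, both in the upper 2031 of each replicate. The second summit also lies within 5 kb of E(spl)m2-BFM.

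E(spl)m2-BFM (3R 26016514 to 26017470, minus strand) had the strongest summit within 1 kb of the TSS of a family member. It lay 582 bp upstream of the TSS, in an exon of the non-coding gene lncRNA:CR43643. The signal was 183.5 in replicate 1, 151.1 in replicate 2 and 332.4 in the pooled list, with ranks 307, 264 and 289. The replicates' summits were 7 and 10 bp from the pooled one, so position and rank were close in both. With 13 pooled summits it had the most in any protein-coding gene of its range of length, but the next genes had 12. The pooled summit at 26018794, counted among the 13, had no summit within 250 bp in either replicate.

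E(spl)m4-BFM (3R 26023821 to 26024579, minus strand), one of the family genes responsive to Notch, had a summit 95 bp downstream of its TSS, in the coding exon. The signal was 115.7 in replicate 1, 65.6 in replicate 2 and 181.3 pooled. It ranked 852 in replicate 1 and 1506 in replicate 2, so its place was lower in the second, and the replicate summits were 41 and 2 bp away. A second summit in its span, with pooled signal 201.7 and rank 819, was 460 bp upstream of E(spl)m3-HLH and is the nearer to that gene.

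E(spl)m6-BFM (3R 26032911 to 26034047, plus strand) had no thresholded summit within 1 kb of its TSS. The strongest pooled summit there, 732 bp upstream, had signal 75.5 and rank 5865. Both thresholded summits in its span were nearest to bHLH genes. One, with signal 222.2 in replicate 1, 179.6 in replicate 2 and 399.3 pooled, was 418 bp upstream of E(spl)m7-HLH and 2573 bp beyond the 3' end of E(spl)m6-BFM. It ranked 190, 167 and 180 and was the highest of the 7 in the Enhancer of split stretch. The other was in the 5' UTR of E(spl)m5-HLH, 51 bp from its TSS, with signal 91.7, 63.1 and 153.5.

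By nearest TSS, summits in the Enhancer of split stretch were thus divided between the 2 kinds of genes. Of the 7, 4 were nearest to the TSS of a Bearded family gene and 3 to that of a bHLH gene, which encode repressors that act downstream of Notch. Kaz-m1, a gene of neither kind in this stretch, held 4 of the 7 in its widened span, all shared with family members. All 7 bHLH genes of the complex held a thresholded summit in their widened span, against 23.9% of all protein-coding genes. Of these genes, 5 shared a summit with a family member. Their spans overlap too, and neighbouring bHLH genes share summits.

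**Figure D2:**
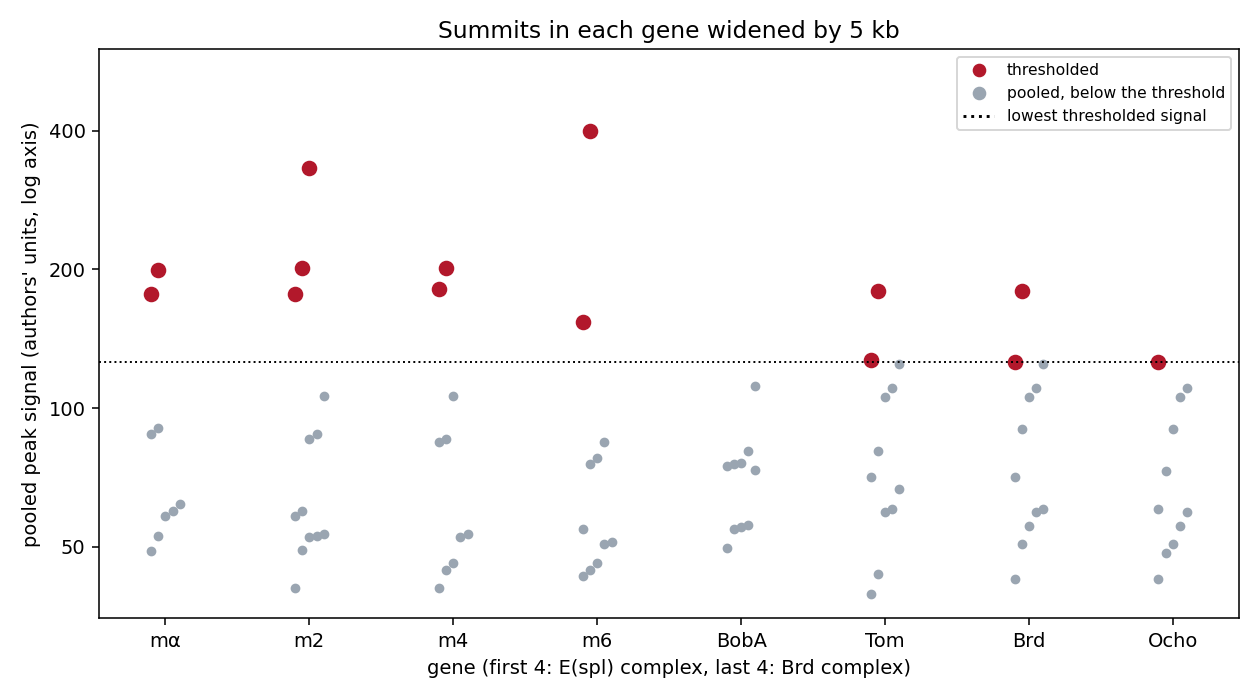
Pooled peak signal (authors' units, log axis) of each summit in the span of each of the 8 genes, widened by 5 kb; red points are thresholded, grey points are below the threshold, and the dotted line is the lowest thresholded signal, 125.7. Points recur where spans overlap, and the red point of Ocho and the lower red points of Tom and Brd sit at the line.

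In the Bearded complex the strongest summit was at 3L 14956486, in a peak at 14956286 to 14956638. The signal was 604.8 in replicate 1, 442.2 in replicate 2 and 1039 in the pooled list. It ranked 9 in both replicates and 10 when they were pooled, and the replicates' summits were 1 and 15 bp from the pooled position. The signal was 4.97 times that of the next summit of the complex in the pooled list, and 4.92 and 4.82 times in the replicates. It was also 2.60 times the highest of the Enhancer of split stretch. The next best rank at the family's loci in the pooled list was 180.

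This summit lay far from every gene. It was 10361 bp upstream of the TSS of BobA, the nearest protein-coding TSS, and 12858 bp upstream of that of Tom, within a gap of 23218 bp between both genes. Brd was 16181 bp and Ocho 18362 bp away. The nearest TSS of any kind was that of lncRNA:CR45978, at 6602 bp. Of all 2031 thresholded summits, 11.8% lay farther from a protein-coding TSS, and the median distance was 1186 bp. Of the 25 highest summits, 6 lay at least as far away, this one included. An annotated transib2 transposable element lay 454 bp from the summit. Of 12 36-base words sampled across the window printed above, none occurred more than once on the chromosome arms, and no base of it is soft-masked as repeat.

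The gap held 3 more thresholded summits. The one at 14961342 had signal 122.9 in replicate 1, 91.7 in replicate 2 and 209.0 pooled, with ranks 749, 807 and 776. The one at 14953173 had 91.5, 75.3 and 158.6, with ranks 1378, 1167 and 1296. The fourth, 2737 bp upstream of Tom, had signal 93.7 in replicate 1 and 127.0 pooled. In replicate 2 the nearest summit was 131 bp away, with signal 33.7 and rank 6765, against rank 1316 in replicate 1. It was the only one of the 13 without a summit within 100 bp in both replicates.

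Tom (3L 14969344 to 14970306, plus strand), which causes extra bristles when overexpressed, was the only family gene of the Bearded complex with a thresholded summit within 1 kb of its TSS. The summit lay 101 bp downstream of the TSS, in the coding exon. The signal was 107.9 in replicate 1, 70.7 in replicate 2 and 179.5 pooled, with ranks 965, 1298 and 1033.

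Brd (3L 14972667 to 14973198, plus strand), whose gain-of-function alleles gave the family its name, missed the threshold at its own start. The summit 77 bp downstream of its TSS had pooled signal 125.0 and rank 2055, just outside the 2031 thresholded peaks. It had signal 89.7 and rank 1437 in replicate 1, and 46.9 and rank 3087 in replicate 2, where the summit was 68 bp away. The 2 thresholded summits in its widened span were those of Tom and Ocho.

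Ocho (3L 14974848 to 14976040, plus strand) had 1 thresholded summit, 148 bp past its 3' end and 1005 bp from its nearer TSS. Its signal of 82.6 in replicate 1, 46.7 in replicate 2 and 125.7 pooled gave ranks of 1696, 3110 and 2031. It is the last peak of the thresholded list. The summit 120 bp upstream of the first TSS was below the threshold, with signal 31.7 and rank 18029 in replicate 1 but 56.7 and rank 2073 in replicate 2. A further peak just outside the threshold was also in this complex, 10649 bp upstream of Tom, with pooled signal 124.3, pooled rank 2076, and ranks 1912 and 1897 in the replicates.

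The number of summits at Tom, Brd and Ocho therefore differed between the replicates, and Ocho had none in 1 of them. In the 2031 highest peaks of replicate 1 alone, these genes held 3, 4 and 3 summits in their widened spans. In those of replicate 2 alone they held 1, 1 and none, against 2, 2 and 1 in the thresholded list. The spans of the 4 Enhancer of split members held the same number of summits in each replicate as in the thresholded list. All 7 summits of that stretch were matched within 100 bp among the 2031 highest of both replicates, and 4 of the 6 in the Bearded stretch were, against 67.5% of all thresholded summits. The authors derived the threshold from reproducibility, but the list equals the 2031 highest pooled peaks, so a single peak in it need not be reproducible. These shares are descriptive.

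**Figure D3:**
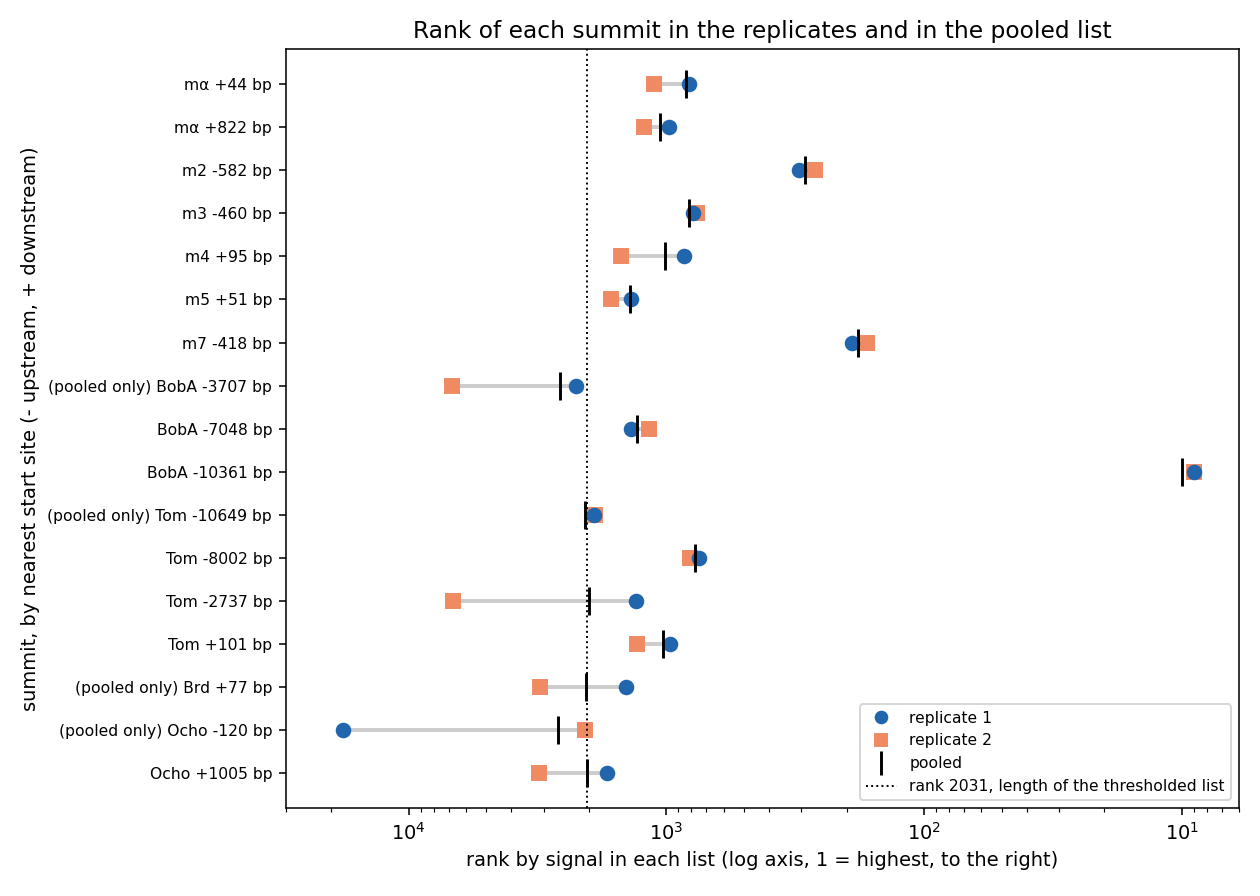
Rank by signal (log axis, 1 is highest) of the 13 thresholded summits and of 4 pooled summits of the Bearded complex. Circles are replicate 1, squares replicate 2 and bars the pooled list. Each replicate's rank is that of its nearest summit within 250 bp. The dotted line is rank 2031. The intergenic summit ranks 9 in both replicates. The summits 2737 bp upstream of Tom, 77 bp downstream of Brd's start and 1005 bp downstream of Ocho's fall on different sides of the line. That 120 bp upstream of Ocho ranks below the line in both replicates.

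BobA (3L 14945499 to 14946125, minus strand), short for Brother of Bearded, held 10 pooled summits in its widened span and none of them passed the threshold. Their pooled signal ranged from 49.7 to 111.8 with a median of 74.1. The highest lay 3707 bp upstream of BobA and 52 bp upstream of lncRNA:CR45978, with pooled rank 2588, signal 71.6 and rank 2236 in replicate 1, and signal 33.7 and rank 6775 in replicate 2. The replicates differed more at a summit 1342 bp upstream of BobA, at 14947467, which ranked 26562 in replicate 1 and 2843 in replicate 2. No pooled summit lay inside BobA, but 1 lay 24 bp upstream of its TSS, with pooled signal 55.7 and rank 12341. It ranked 19608 in replicate 1, where the summit was just inside the gene, and 6195 in replicate 2. Of 40 36-base words sampled along the gene, 28 occur again in CG13465, 1167 bp away, which held no pooled summit either. None of the words sampled in the other 7 members was repeated on the arms. How reads from these duplicated bases were treated is not given in the sources used here, and their part in the result was not tested.

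Fork head matches were counted around each summit. Of the 13 summits, 5 had a match no more than 100 bp away, against 43.1% of all thresholded summits, and 4 of the 10 in the members' spans did. In a wider window of 250 bp each side, 7 of the 13 and 4 of the 10 had one, against 66.2%. The summit past the 3' end of E(spl)malpha-BFM held 3, centred 80 and 10 bp before and 69 bp after it. That upstream of E(spl)m2-BFM held 2, and those upstream of E(spl)m7-HLH, 8002 bp upstream of Tom and past Ocho held 1 each. The strongest summit, between BobA and Tom, held none. A looser consensus also allows C at the second base and C at the third, and so contains the first. With it the strongest summit held 5, and 10 of the 13 summits held at least 1, against 69.7% of all thresholded summits. The share of all thresholded summits with 5 was not counted.

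Other consensus sequences were rare at the summits. Su(H), the DNA-binding protein of Notch signalling, had 1 match among the 13, past the end of Ocho, against 2.31% of all thresholded summits. GAGA factor (GAGAG) had matches at 2 summits, in Tom and upstream of E(spl)m3-HLH, against 27.0%. Proneural E boxes (GCAGCTG, where the first base may also be A and the fifth also G) had none, against 10.5% of all thresholded summits. The same held for Zelda sites (CAGGTAG), against 1.58%, and for Twist type E boxes (CATATG), against 7.58%. DREF sites (TATCGATA) had none either, against 2.90%. None of these other sequences contains another of them. The GC content of the 13 windows ranged from 23.4% to 48.3% with a median of 40.8%, against a median of 37.3% over all thresholded summits.

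Consensus matches were also counted at the members' promoters. Over 300 bp around the gene's start, Su(H) matches were found in E(spl)m4-BFM and Ocho, against 3.18% of all protein-coding promoters. Proneural E boxes were found in E(spl)m4-BFM, Tom and Brd, against 19.3%, and Zelda sites in BobA and Brd, against 1.64%. GAGA factor matches were in 4 of the 8 promoters, against 29.7%. A fork head match was in 1, that of E(spl)m2-BFM, against 46.2%. Twist type E boxes and DREF sites were in none, against 7.82% and 9.36%. These matches are letters in a window and say nothing of a factor's presence.

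**Figure D4:**
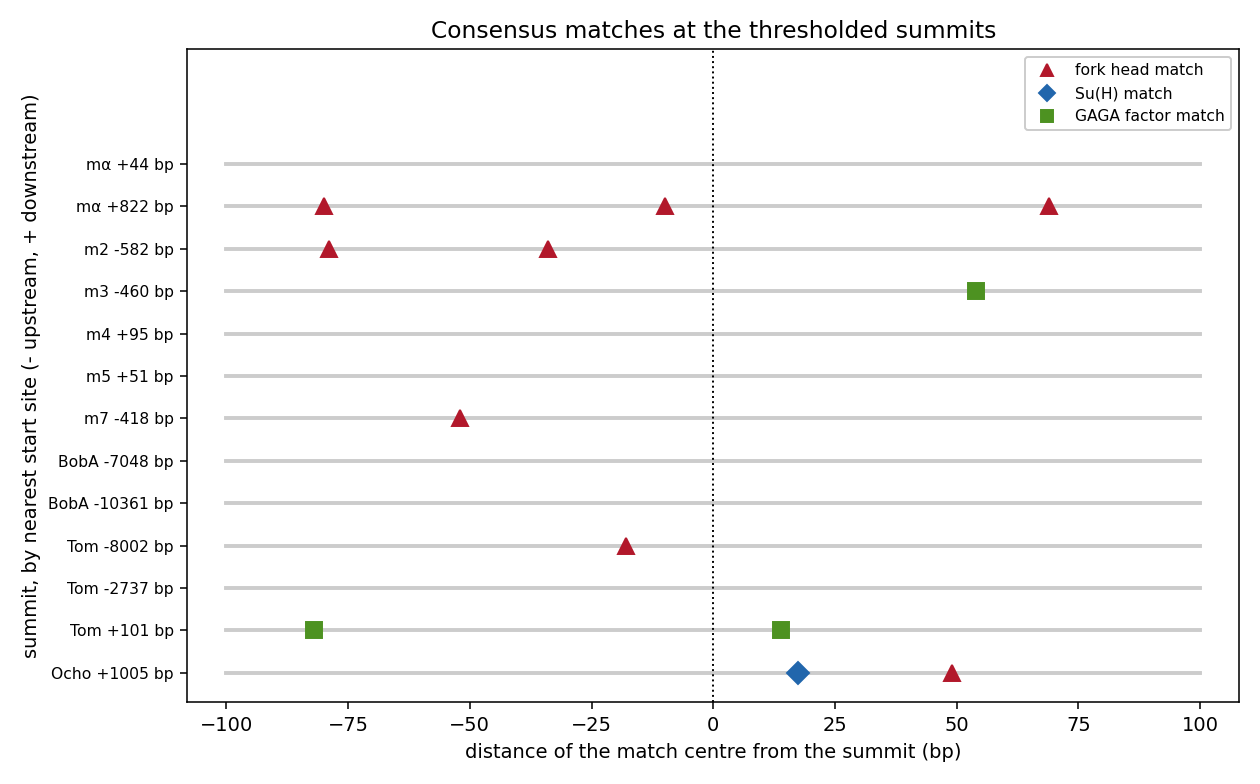
Distance in bp of each consensus match from the summit, for the 13 thresholded summits named by their nearest protein-coding start site; triangles are fork head, diamonds Su(H) and squares GAGA factor matches. Of the 13 rows 6 are empty, among them those 7048 and 10361 bp upstream of BobA.

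In the wider pathway, 17 of 25 Notch signalling genes, the bHLH genes of the complex included, held a thresholded summit in the gene widened by 5 kb, against the 23.9% of all protein-coding genes given above. Without the 7 bHLH genes the count was 10 of 18. A summit within 1 kb of a TSS was found for 10 of the 25, against 9.08% of all protein-coding genes. The bHLH genes lie at a locus chosen with its peaks known, and 5 of them share a summit with a family member. The 25 genes are of unequal length and several share summits. The highest summits were those at numb (signal 515.0), which encodes an inhibitor of Notch, at E(spl)mdelta-HLH and E(spl)mgamma-HLH (1 summit, 481.9) and at E(spl)m7-HLH and E(spl)m8-HLH (1 summit, 399.3). Delta, H, mib1 and Nct held none. The gene for Neuralized, neur, the target of Bearded family proteins and named here for that reason, held 1 summit in its intron, 611 bp from its TSS, which also lies in the 5' UTR of hyx. It had pooled signal 130.0 and rank 1897, and ranked 1545 in replicate 1 and 3550 in replicate 2. Of 11 proneural and mesectoderm regulators 5 held a thresholded summit, also against 23.9%, at sc, l(1)sc, ase, emc and sim. The others, ac, ato, da, sna, twi and dl, held none. These regulators are of unequal length as well, and only emc had a summit within 1 kb of a TSS.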

How the data were processed

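Peak lists from chromatin immunoprecipitation and sequencing (ChIP-seq) of fd102C-GFP embryos were analysed for 8 Bearded family genes. The members, gene lists, motifs and alternatives were chosen with earlier results of these data known. Per the notes deposited with the files, the authors made 1 peak list from either replicate and 1 from the 2 pooled, against a control alignment not analysed here, and derived the thresholded list from these by reproducibility. The deposited signal of each peak is the authors' own value on a scale that is not given in the sources used here, as are the aligner and caller. The deposited −log10 q-value was used only to order ties. Without read counts in these lists the sequencing depth is unknown, and no counting interval can be given.

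Coordinates are 1-based in dm6, per the labels. Genes and transcription start sites (TSSs) came from Ensembl release 115 without transposable elements, and sequences from the RefSeq copy of Release 6. Ranks order the peaks of a list by signal. A summit belonged to a gene when it lay in the gene widened by 5 kb, and was shared with a replicate when that replicate had a summit within 100 bp. Either strand was searched for motifs up to 100 bp from a summit, and in promoters of 250 bp before to 50 bp after the gene's start. Counting was tested on simulated data, where planted peaks and motifs were recovered (Python 3.11.15). Named genes were the members, genes at their summits, and in the Notch list the 4 genes with the highest summits and up to 4 without one, in alphabetical order. The alternatives used a single replicate (cut at its 2031 highest peaks), the 1016 highest thresholded peaks, and other widths, distances, windows and consensus.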

Additional observations from a re-analysis of the deposited data

How the results depend on the processing

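With 2 kb added to each gene, 5 members held a thresholded summit and the distinct summits fell to 6, and with 10 kb the values were 8 and 14. Among the 1016 highest thresholded peaks, 4 members held one, with 5 distinct summits. The 3 in the spans of the Bearded complex rank below these, as do 2 of the Enhancer of split complex, with ranks 1055 and 1389. With each replicate alone, 6 to 7 members and 8 to 12 distinct summits were counted, and 4 to 5 members had a summit within 1 kb of a TSS. Fork head matches were at 2 of the 10 summits around the members within 50 bp (28.1% of all thresholded summits), at 4 within 250 bp (66.2%) and at 7 with the looser consensus (69.7%). All 8 members held a pooled summit under each of the 5 alternatives run. No paired analysis was possible because there was 1 group. With 2 replicates, unknown depth and no control analysed here, differences in signal between summits carry no error of their own.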

Other observations

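The pooled list crowded around other short genes as well. In the range of length of the members, 62 genes held 9 or more pooled summits in the gene widened by 5 kb, of which 54 are no members. They were named after their values were seen. E(spl)m7-HLH had 12 and E(spl)m5-HLH 10. CG13465, which shares bases with BobA, had 9. Outside both complexes the most was 12, in CG13086, CG14589, CG15283, CG32266, CG42808 and Mpv17.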
